A study of Mus musculus with 20 samples.

Results

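Denervation was examined in the gastrocnemius (GAS), the large calf muscle, of mice that lack osteoprotegerin. Osteoprotegerin (OPG, gene Tnfrsf11b) is the secreted decoy receptor that keeps RANKL from its receptor RANK, and Opg-/- mice are homozygous for the Tnfrsf11b tm1Smoc null allele. The comparison set 5 RNA-seq libraries of the denervated limb (Opg-/- den) against 5 libraries of the sham-operated limb (Opg-/- sham), which are 10 of the 20 libraries of the series and were chosen by genotype and treatment label alone. The animals were 12-week-old males. In each, a 10 mm length of the right sciatic nerve was transected and the left nerve was only exposed, and the muscles were taken on day 7. The remaining 10 libraries came from wild-type (WT) C57BL/6 mice with the same surgery, and they enter here only where the response of the 2 genotypes is compared. The model has limits: the allele is carried by every cell of the animal and not by muscle alone, and the sham muscle is the contralateral limb of an animal that also carried a denervated limb. The labels do not state that libraries with the same replicate number came from the same mouse, so p-values measure the spread between libraries.

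Skeletal muscle depends on its nerve for more than the command to contract. In innervated fibres, acetylcholine receptors are confined to the junction, and electrical activity keeps the genes of the immature junction silent along the rest of the fibre. When the nerve is cut, the fibre becomes electrically silent, the class IIa histone deacetylase and myogenin pathway opens these genes again, and ubiquitin ligases mark contractile proteins for the proteasome. The fibre then loses mass over days to weeks.

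Depth was similar in the compared groups, with 16122542 to 18820878 reads assigned to genes per library, as recovered from the scaled values. The first principal component of the 10 Opg-/- libraries held 58.4% of the variance and separated den from sham. The second held 6.44% and placed den replicate 1 at 48.5 and the other 4 den libraries between -16.3 and -7.41, while the sham libraries spread from -24.7 to 34.8. The scaled values of a den library summed to 14299841 to 15564646, against 19099963 to 22056156 in sham. The 10 genes with the highest values, which are not scaled by gene length, took 24.1 to 27.0% of the values in sham and 10.3 to 13.1% in den. When every library was brought to the same total, the median log2 change of all genes moved up by 0.40. Some genes with high values moved slightly more, such as Ryr1 (-0.39 to 0.06) and Actn3 (-0.50 to -0.05). The direction of decreases smaller than such a shift depends on the scaling of the authors. A pair of WT sham libraries differed by less than the sampling noise and were counted as 1 sample. Tnfrsf11b itself was low in all groups, at 8.78 ± 1.99 (SD, n = 5) in Opg-/- sham, 5.98 ± 3.75 in Opg-/- den, 2.75 ± 1.90 (n = 4) in WT sham and 4.41 ± 1.90 (n = 5) in WT den. The Opg-/- sham libraries (6.06 to 11.2) lay above those of WT sham (1.18 to 5.51), which is not the direction of a lost transcript. These levels do not check the genotype labels, because such values sum the reads over the whole gene, the disrupted part included. All 10 markers of skeletal muscle fibres were detected in every library.

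Of 17948 genes tested, 2055 rose and 1828 fell by the definition of the study (adjusted p under 0.05 and a log2 change above 1 in size), which is 11.4% and 10.2% of the genes. By adjusted p alone, 5125 genes (28.6%) were higher and 4736 (26.4%) were lower, and these shares are the background for each gene group below. The tests used limma on log2(value + 1) with Benjamini-Hochberg adjustment, and log2 changes are given ± SE on that scale, which understates the change of genes with low values. The 5 den and 5 sham values did not overlap for 7325 genes (40.8%), and for 3048 of the 3883 genes that passed the definition. Leaving out den replicate 1 gave 2080 genes higher and 1817 lower. With voom on reads recovered from the values, scaled by a trimmed mean of log ratios, the same definition gave 2027 genes higher and 1815 lower. With equal library totals it gave 3743 genes higher and 929 lower, so the balance of the directions rests on the choice of scaling. By adjusted p alone 47.5% of all genes were then higher and 12.8% lower, which is the background for every count given with equal library totals. Among the genes described below that did not pass the test, Actn2, Bche, Cacna1s, Deptor, Foxo1, Igf1, Jsrp1, Mrln, Myf5, Myh2, Nfkb1, Pgam1, Sat1, Sms, Utrn and Xdh were called higher with equal library totals (log2 changes 0.40 to 0.92). Of the genes that passed the definition, 104 had a log2 change above 4 and 74 had one below -4.

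**Figure D1:**
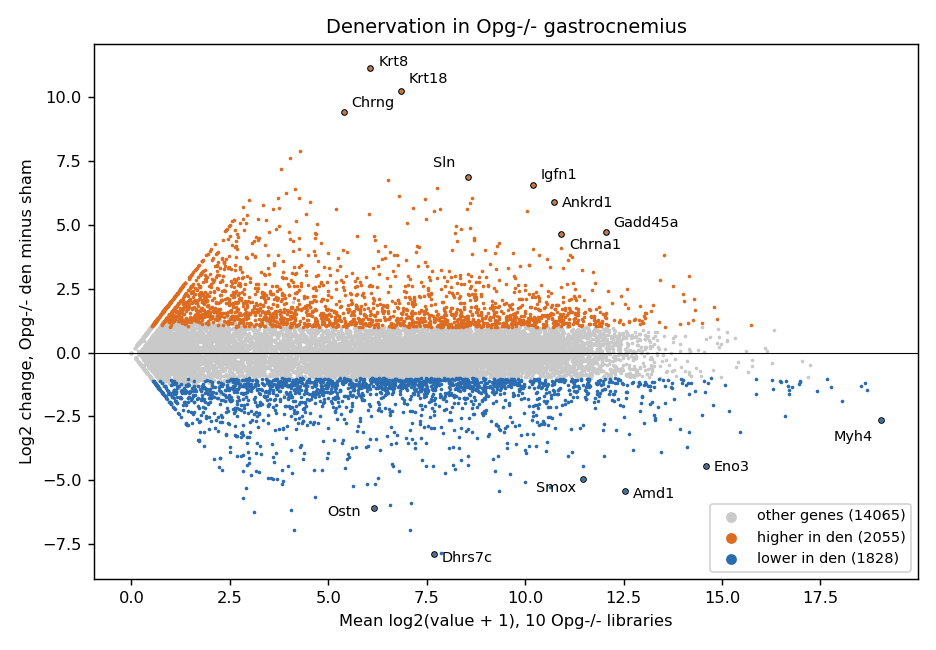
Log2 change from Opg-/- sham to Opg-/- den (vertical axis) against the mean log2(value + 1) of the 10 libraries (horizontal axis) for the 17948 genes tested. Orange points are the 2055 genes that rose, blue points the 1828 that fell by the definition of the study, and grey points the rest. The labelled genes are a selection of those named in the text and not the largest changes in order.

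All 5 acetylcholine receptor subunit genes changed, 4 upward and 1 downward. Each receptor is a ring of subunits encoded by Chrna1, Chrnb1, Chrnd and either Chrng, which is used in fetal and extrajunctional receptors, or Chrne, which replaces it at the mature junction. MyoD, myogenin and related factors bind E-boxes, whose letters are CANNTG, in the promoters of these genes. The 250 bases before the RefSeq start of 4 subunit genes are printed because the genes moved together, apart from Chrne. The Chrng window lies inside the span given for that gene below, which is from GENCODE and begins further upstream. They are RefSeq sequences of build GRCm38.p6, written 5′ to 3′ on the strand of the gene, with every CANNTG in capitals.
Chrna1, chr2:73580339-73580588 (minus strand): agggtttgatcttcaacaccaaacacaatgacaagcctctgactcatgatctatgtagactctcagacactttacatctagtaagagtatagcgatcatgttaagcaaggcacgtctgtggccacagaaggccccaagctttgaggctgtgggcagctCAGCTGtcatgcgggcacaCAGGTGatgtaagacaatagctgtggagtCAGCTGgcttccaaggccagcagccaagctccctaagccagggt
Chrnb1, chr11:69795938-69796187 (minus strand): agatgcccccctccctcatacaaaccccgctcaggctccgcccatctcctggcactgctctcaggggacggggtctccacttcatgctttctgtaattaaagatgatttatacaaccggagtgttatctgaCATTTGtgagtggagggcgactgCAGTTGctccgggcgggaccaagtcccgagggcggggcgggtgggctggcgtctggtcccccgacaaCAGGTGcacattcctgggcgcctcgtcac
Chrng, chr1:87205561-87205810 (plus strand): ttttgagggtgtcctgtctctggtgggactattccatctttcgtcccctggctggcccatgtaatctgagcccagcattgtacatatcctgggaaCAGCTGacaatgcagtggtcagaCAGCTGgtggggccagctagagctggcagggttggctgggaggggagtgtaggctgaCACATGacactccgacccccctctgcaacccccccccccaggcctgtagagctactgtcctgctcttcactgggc
Chrne, chr11:70619195-70619444 (minus strand): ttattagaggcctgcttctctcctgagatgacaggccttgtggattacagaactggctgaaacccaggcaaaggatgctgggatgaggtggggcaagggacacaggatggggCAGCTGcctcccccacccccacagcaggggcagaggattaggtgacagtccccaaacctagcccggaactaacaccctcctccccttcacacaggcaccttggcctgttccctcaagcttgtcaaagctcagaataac

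Chrna1, Chrnb1 and Chrng each held 3 matches to CANNTG in this window and Chrne held 1. Chrnd, which also rose, had no entry in the promoter set used and could not be examined. Over 32851 promoter windows of the same length, 66.2% held at least 1 match and 12.2% held 3 or more. The palindrome CAGCTG, which is 1 form of CANNTG and reads the same on both strands, was present 2 times in Chrna1, 2 times in Chrng, 1 time in Chrne and not in Chrnb1, against 13.0% of all windows with at least 1. The N-box CCGGAA, searched on both strands, which ETS factors bind in the Chrne promoter, was present 1 time in Chrne and in none of the other 3 windows, against 12.03% of all windows. A match is a description of the letters and not evidence of binding.

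Chrng (chromosome 1, 87204657 to 87212694) was at 0, 0, 2.39, 2.24 and 0 in the 5 sham libraries and at 741, 1302, 813, 1811 and 1106 in the 5 den libraries. The fetal subunit was thus close to silent in every sham muscle and abundant in every den muscle, a log2 change of 9.41 ± 0.62 (adjusted p = 1.09e-09). Chrnd stood at 57.0, 41.5, 57.5, 59.2 and 41.8 in sham and at 1699.8, 2985, 2529.6, 3316 and 2668 in den, and its log2 change was 5.64 ± 0.24. Chrna1, which carries most of the acetylcholine binding site, was at 436, 307, 369.9, 411 and 413 in sham and at 8268, 10792, 10234, 10916 and 8307 in den. Its log2 change was 4.64 ± 0.12, beside 2.19 ± 0.09 for the beta subunit gene Chrnb1, for which the den values were 4497, 4189.8, 4220.4, 4234 and 4050.3 against 1000.1, 724, 946, 893 and 1107 in sham. Chrne moved the other way, from 482, 408, 512, 502 and 399.9 to 185, 156, 144, 156 and 146, a log2 change of -1.54 ± 0.12 (adjusted p = 6.43e-12). The groups overlapped for none of the 5 subunits, where 40.8% of all genes showed no overlap. Bulk RNA cannot tell fewer cells of a type from less RNA per cell, and this holds for every decrease described here.

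**Figure D2:**
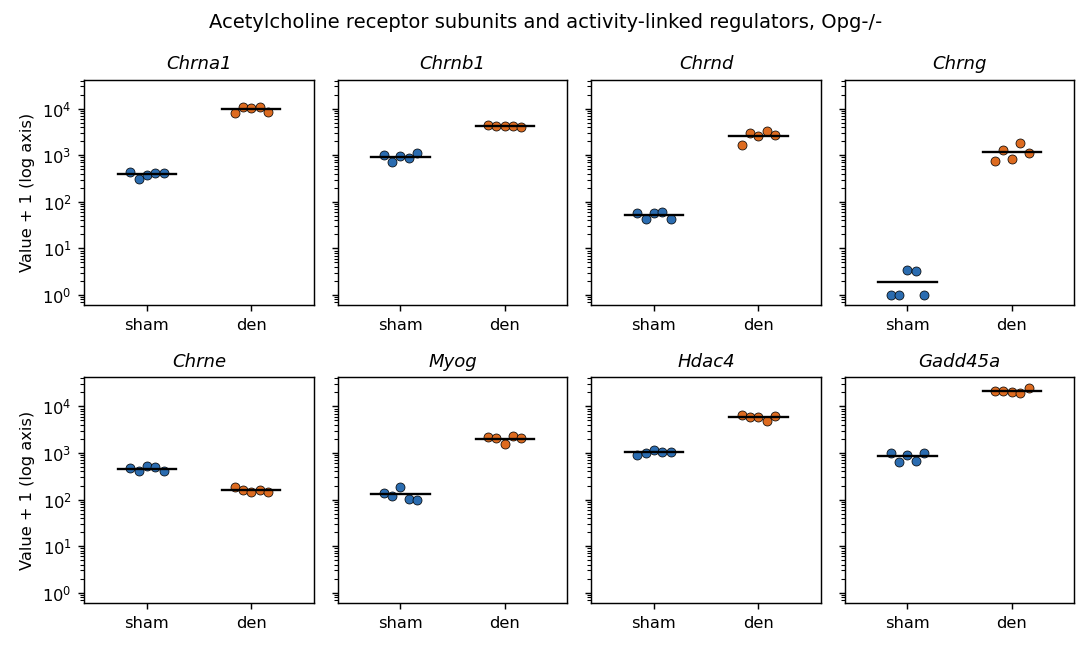
Deposited value per library (log axis, value + 1) of the 5 acetylcholine receptor subunits and of Myog, Hdac4 and Gadd45a in Opg-/- sham (blue) and Opg-/- den (orange), 5 libraries each, with a bar at the mean. For all 8 genes the groups stand apart, and Chrne is the only one of them that is lower in den.

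Of the other 15 genes of the neuromuscular synapse tested, 6 rose, 5 fell and 4 did not pass the test, with a median log2 change of 0.01 beside 0.02 for all genes, so 40.0% rose and 33.3% fell, while 8 rose and 3 fell with equal library totals. Ncam1, the adhesion molecule that spreads over denervated fibres, rose from 144, 114, 170.0, 149 and 124 to 921, 1261, 1082, 1256 and 1163, a log2 change of 3.01 ± 0.11. Musk, the receptor kinase that clusters acetylcholine receptors, rose by 1.94 on the log2 scale, and its partners Rapsn and Lrp4 rose by 0.80 and 0.60. Dok7, the activator of MuSK inside the fibre, fell (log2 change -0.85 ± 0.10). The largest decrease was that of Ache, the acetylcholine-degrading enzyme, from 1498, 1274, 1604, 1461 and 1235 to 179, 108, 189, 129.8 and 98.9 (log2 change -3.36 ± 0.18), and Colq, the collagen that anchors it, changed by -0.97. The call of Colq was lost with equal library totals, in a fit of the Opg-/- groups alone (adjusted p = 0.0587) and without den replicate 1, 2 or 3 (adjusted p from 0.0523 to 0.0581 without 1 of these). Etv5, an ETS factor of the junction, changed by -1.15, whereas Utrn (means of 608 in sham and 608 in den) and Bche (82.1 in sham and 81.4 in den) gave log2 changes of 0.01 and 0.00 and did not pass the test, but were called higher at 0.46 and 0.45 with equal library totals. Agrn, which encodes the nerve-derived organizer agrin, changed by -0.31, and by 0.15 without a call with equal library totals.

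Genes of the excitable membrane changed in both directions. Among 14 channels and pumps, 3 rose and 10 fell (median -0.73), and with equal library totals the counts were 4 and 8. Scn4a, the sodium channel of adult muscle, went from a mean of 11921 ± 564 to 8335 ± 206 (SD, n = 5) (log2 change -0.52 ± 0.07), and this call was lost with equal library totals. Kcnn3, the small-conductance calcium-activated potassium channel whose block by apamin marks denervated fibres, rose from 23.0, 16.3, 25.1, 45.8 and 11.9 to 2118, 2142, 1741, 1922 and 2169. That is a log2 change of 6.44 ± 0.24, and Kcnk5, an acid-sensitive background potassium channel, rose by 5.61. Clcn1, the chloride channel that steadies the resting potential, fell with a log2 change of -1.72 ± 0.11. The potassium channel genes Kcnc1 and Kcna7 and the silent subunit gene Kcng4 also fell, with log2 changes of -2.88, -2.94 and -5.97. The water channel Aqp4 went from 432 ± 104 to 14.5 ± 7.28 (log2 change -4.91 ± 0.31). Cacna1s, the voltage sensor of the T-tubule, had means of 18395 in sham and 18713 in den and did not pass the test.

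Most calcium handling genes were lower, with 15 of 23 down, 4 up and a median log2 change of -0.88, and with equal library totals 13 were down and 6 up. Atp2a1, the calcium pump of fast fibres, fell from 696947 ± 46679 to 257294 ± 33997 (log2 change -1.45 ± 0.10). Its slow-fibre counterpart Atp2a2 rose by 0.85. Sln, sarcolipin, a small inhibitor of these pumps, was at 36.4, 12.6, 9.58, 113 and 84.8 in sham and at 1986, 3861, 4192, 4381 and 7646 in den, a log2 change of 6.85 ± 0.59. The values spread widely in both groups yet did not overlap. Dhrs7c (chromosome 11, 67798187 to 67816002), a dehydrogenase of the sarcoplasmic reticulum, gave the largest decrease of all genes named here, from 3284, 3131, 3386, 2933 and 3165 to 35.0, 5.17, 12.1, 13.6 and 8.75 (log2 change -7.90 ± 0.31, adjusted p = 8.35e-13). Casq1, the calcium store protein, changed by -2.43, and the junctophilins Jph2 and Jph1, which hold the T-tubule to the store, by -2.28 and -0.88. Pvalb, the calcium buffer of fast fibres, went from 165687 ± 16248 to 67405 ± 8053. Cacng1, the gamma subunit of the T-tubule calcium channel, rose by 1.87, in contrast to the related Cacng6 at -0.94. Ryr1, the release channel, changed by -0.39, but by 0.06 without a call with equal library totals, while Jsrp1 and Mrln gave -0.03 and -0.05 without passing the test.

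Among contractile genes, all 12 of the fast-twitch list fell (median -1.39), and 10 fell with equal library totals, the exceptions being Actn3 and Myh1. Myh4, the type IIB myosin heavy chain and the gene with the highest values in sham, was at 1481540.0, 1307750.0, 1232620.0, 1287910.0 and 1474030.0 in sham and at 222694, 215842, 270954, 202929 and 171717 in den. Its share of all values was 6.29 to 6.98% in sham and 1.20 to 1.78% in den, and its log2 change was -2.66 ± 0.18 (adjusted p = 1.23e-10). The size of the decrease ranged widely across the list. Mybpc2, myosin-binding protein C of fast fibres, and Myoz1, a calcineurin-binding Z-disc protein, changed by -3.10 and -2.99, whereas Actn3 and Myh1, the type IIX myosin, changed by -0.50 and -0.54. Myh2, the type IIA myosin, gave 0.20 ± 0.19 and Myh7, the slow myosin, -0.68 ± 0.36, and neither passed the test. For Myh7 the sham libraries ranged from 1742 to 4663 and the den libraries from 1036 to 2958. The 10 slow-twitch genes went both ways, with Myl6b and Tnnt1 up by 2.30 and 1.16, Myl2 and Myl3 lower at -1.51 and -1.65, and 5 not called, while 5 rose and 2 fell with equal library totals.

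Of 8 developmental contractile genes 4 rose and 2 fell. Myh3, embryonic myosin, was at 89.7, 98.0, 51.5, 57.0 and 25.1 in sham and at 917, 2091, 1058, 3043 and 1199 in den (log2 change 4.66 ± 0.56). Myh8, perinatal myosin, rose by 3.63, Tnnt2, cardiac and embryonic troponin T, by 3.80 and Myl4, the embryonic light chain, by 2.98. The den values of Myh3 differed by more than 3-fold among themselves, with replicate 4 the highest. Actc1, the actin of fetal and cardiac muscle, went the other way, from 16616, 11618, 8788, 15441 and 3595 to 348, 189, 295, 309 and 185, a log2 change of -5.26 ± 0.35. Reads of Actc1 and Acta1 can be split between near-identical coding sequences, and Acta1 changed by -1.18. Actn2 (0.15) and Tnni3 (0.12) were not called.

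Many muscle genes have a counterpart that other tissues or immature muscle use in its place, and 20 such pairs were compared. In 8 pairs the adult gene fell and the counterpart rose, in 7 the adult gene fell and the counterpart was not called and in 5 both fell. This tally depends on the scaling, since with equal library totals 12 counterparts rose and 3 fell and 19 of the adult genes fell. The 20 adult genes had changes down to -4.45 (Eno3, muscle enolase), and their median was -1.99, against 0.12 over the counterparts. Ribosomal protein L3 gave a clean switch. Rpl3l, its muscle-restricted form, went from 10012, 8599, 9396, 8085 and 8968 to 834, 565, 568, 549.7 and 526 (log2 change -3.90 ± 0.12), and Rpl3 from 1165, 1295, 1201, 1224 and 1306 to 5479, 5272, 5779.9, 5819 and 6412 (log2 change 2.21 ± 0.07). The elongation factor pair moved in opposite directions too, with Eef1a2 at -0.69 and Eef1a1 at 2.01. So did the AMP deaminases, with Ampd1 at -2.11 and Ampd3, the form found in red blood cells and atrophying muscle, at 3.67 ± 0.09. In glycolysis the adult form fell without a called rise of the counterpart at the scaling of the authors. Eno3 fell from a mean of 116277 ± 10957 to 5314 ± 581 and Eno1 changed by -0.73, while Pgam2 changed by -2.60 and Pgam1 stood at 0.06 without a call, but was called higher at 0.51 with equal library totals. Pfkm, Pygm and Phkg1, which control glycolysis and glycogen breakdown, changed by -2.28, -2.49 and -3.04. For the alpha subunit of phosphorylase kinase, in contrast, Phka1 fell (-2.44) and its counterpart Phka2 rose (1.06 ± 0.09).

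**Figure D3:**
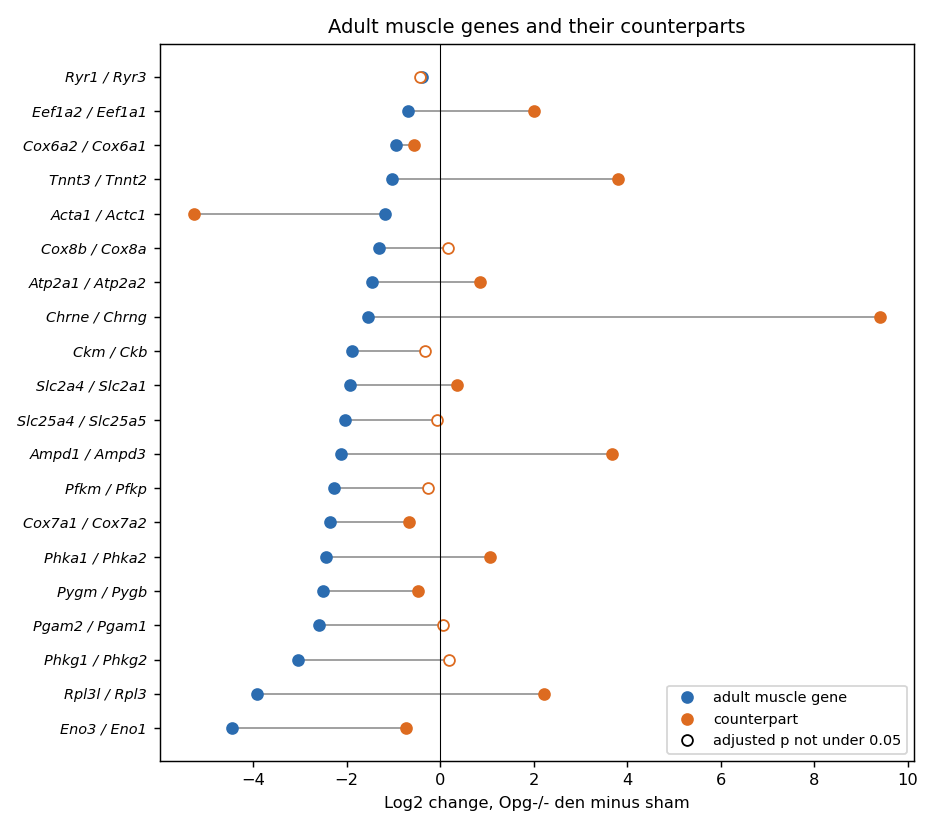
Log2 change from Opg-/- sham to Opg-/- den for 20 pairs of an adult muscle gene (blue) and its counterpart (orange), joined by a line and ordered by the change of the adult gene. Filled points passed the test at an adjusted p under 0.05, and 18 of the 20 lines place the counterpart to the right of the adult gene.

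The regulators that connect electrical activity with the synaptic genes changed in both directions. Myog, myogenin, was at 138, 121, 184, 99.5 and 94.3 in sham and at 2193, 2099, 1542, 2272 and 2083 in den, a log2 change of 4.02 ± 0.22 (adjusted p = 6.24e-11). Myf6 (MRF4) rose by 2.49, from a mean of 2609 ± 349 to 14601 ± 1100.1, and Myod1 by 1.11, while Myf5 gave 0.48 and was not called. Mymk and Mymx, the membrane proteins that fuse myoblasts, rose by 3.53 and 5.44 from low levels (means of 4.42 in sham and 44.4 in den for Mymk). Pax7, the transcription factor of satellite cells, changed by -0.80, a call lost with equal library totals, and of the 7 satellite cell markers 2 rose, 3 fell and 2 were not called. Hdac4, the class IIa histone deacetylase that gathers at the junction, rose from 924, 983, 1153, 1049.7 and 1065 to 6503, 5802, 5837, 4765 and 6143 (log2 change 2.48 ± 0.07), whereas Hdac5, Hdac7 and Hdac9 changed by -1.06, -1.06 and -1.40. Dach2, a repressor of Myog that Hdac4 is known to silence, was low throughout and changed by -2.28 (means of 17.9 in sham and 3.40 in den). Nr4a1, an orphan nuclear receptor induced by activity, fell from 6843, 10956, 11626, 7914 and 7741 to 511, 571, 798, 533 and 341 (log2 change -4.05 ± 0.22). Runx1, the transcription factor that preserves denervated fibres, was at 43.6, 37.7, 69.4, 41.4 and 66.8 in sham and at 2720.0, 2837, 2604, 3095 and 3725 in den (log2 change 5.86 ± 0.18). Id1 and Id3, which hold back myogenic factors, changed by -0.88 and -0.49, and Id2 rose by 2.61, but Id3 kept no call with equal library totals.

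The genes with the largest increases were keratins, which are cytoskeletal filaments of simple epithelia. Krt8 (chromosome 15, 101996698 to 102004482) was at 0, 0, 0, 0 and 4.77 in sham and at 2554, 4658, 3935, 3031 and 2266 in den, and its partner Krt18 was at 1.21, 11.3, 0, 5.59 and 1.19 in sham and at 3413, 4859, 5347, 3503 and 3213 in den. The log2 changes were 11.13 ± 0.45 and 10.23 ± 0.56, and Krt19, also a keratin of simple epithelia, had means of 3.60 in sham and 4.61 in den and was not called. Des, desmin, the filament protein of muscle, rose by 0.90 and was among the 10 most abundant genes in den. At the Z-disc, which anchors the thin filaments, 12 of 18 genes rose and 6 fell (median 0.85), with the same counts under equal library totals. Ankrd1, a stretch-responsive ankyrin repeat protein, was at 154, 191, 151, 206 and 584 in sham and at 10315, 15804, 13048, 15429 and 12442 in den (log2 change 5.90 ± 0.32). Igfn1, an immunoglobulin-like Z-disc protein, was at 103, 157, 53.9, 115 and 244 in sham and at 15927, 11299.9, 10302, 12659 and 8616 in den (log2 change 6.58 ± 0.34). Csrp3 (muscle LIM protein) rose by 3.34, Flnc (filamin C) by 1.79 and Fhl1 by 1.67. Among those that fell were Myoz3 (-3.64), Ldb3 (-1.55) and Tcap (-1.26), the cap of titin. In the dystrophin complex, Dysf, the membrane repair protein dysferlin, rose by 1.05, and Nos1, neuronal nitric oxide synthase, fell from 1124, 1084, 764, 1212 and 1084 to 197, 96.5, 96.4, 135 and 118 (-3.06 ± 0.22).

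Muscle protein breakdown after denervation runs largely through ubiquitin ligases and the proteasome. Fbxo32 and Trim63, the best known of these ligases, were called higher. Fbxo32 (Atrogin-1) was at 17960.4, 24486, 21623, 16591 and 34189 in sham and at 48299, 46953, 39762, 32584 and 47861 in den, and the groups overlapped. Its log2 change was 0.94 ± 0.18 (adjusted p = 3.07e-04), and that of Trim63 (MuRF-1) was 0.59 ± 0.21 (adjusted p = 0.0270) from 22551, 32012, 23343, 17487 and 35844 to 45029, 42305, 37989.8, 27225 and 41764. Both changes are under 1, the size that the definition of the study asks for. The call of Trim63 was lost without sham replicate 1, 3 or 4 and without den replicate 1, 2 or 5 (adjusted p from 0.0548 to 0.0772). Fbxo30, the ligase known as MUSA1, gave the largest increase of the list, from 230.3, 209, 237, 260.5 and 208 to 955, 740.4, 839.7, 752 and 671 (log2 change 1.78 ± 0.10). Of 16 ligases, 5 rose, 7 fell and 4 were not called, and among those that fell were Stub1 (-0.90), the chaperone-linked CHIP, and Trim54 (-0.75). The median of the list was 0.02, and with equal library totals 9 rose and 3 fell. In the proteasome, the catalytic subunits Psmb5, Psmb6 and Psmb7 rose by 1.44, 0.93 and 0.88, while their interferon-inducible replacements Psmb8 and Psmb10 changed by -0.47 and -0.86 and Psmb9 (-0.53) was not called. The call of Psmb8 was lost with equal library totals and without sham replicate 1, 2 or 3 or den replicate 3 or 5 (adjusted p from 0.0530 to 0.0987 without 1 of these). Ctsl, a lysosomal protease, rose from 1972, 1890.4, 1941, 1835 and 2061 to 10658, 10089, 9433, 11979 and 8958 (2.39 ± 0.07).

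FoxO factors and the glucocorticoid receptor drive several of these ligases in fasting. Of 18 genes on this list 4 rose and 9 fell, and with equal library totals 7 rose and 5 fell. Ddit4, an inhibitor of mTOR induced by glucocorticoids, fell from 14004, 18654, 16418, 10884 and 19756 to 4633, 5155, 3155, 2469 and 5140.2 (-1.98 ± 0.33), and Fkbp5, a classic glucocorticoid target, changed by -1.46. Foxo1 (0.10) and Foxo3 (-0.20) did not pass the test. Eif4ebp1, the brake on translation that mTOR releases, rose from 1172 ± 247 to 3059 ± 304. Of 17 genes on the p53 and growth arrest list 10 rose and 4 fell. Gadd45a, which is known to act after Hdac4 in denervated muscle, was at 1003, 647, 899, 684 and 973 in sham and at 21527, 21869, 20370.0, 19818 and 25199.7 in den, and its log2 change was 4.71 ± 0.13 (adjusted p = 5.15e-17). Its paralogs went the other way, Gadd45g from 5491, 6169, 6720.1, 5503 and 5762 to 245, 172, 161, 148 and 162 (-5.07 ± 0.15) and Gadd45b by -2.43. Cdkn1a (p21), the inhibitor of cyclin-dependent kinases, rose from 951 ± 260.2 to 8701 ± 1709 and Mdm2, the ubiquitin ligase of p53, from 986 ± 48.6 to 2809 ± 347, while 15 of 18 cell cycle genes were not called (6 rose and none fell with equal library totals) and Mki67, a marker of dividing cells, had means of 19.4 in sham and 19.2 in den.

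Muscle mass is set by the balance of myostatin with insulin and IGF signalling. Mstn, myostatin, the secreted brake on muscle mass, fell from 1979.6, 2270.4, 2004, 2042 and 2167 to 452, 252, 359, 307 and 268 (log2 change -2.70 ± 0.16), and its receptor genes Acvr2b and Acvr1b changed by -1.77 and -1.52. Gdf5, a BMP ligand that limits denervation atrophy, was at 0, 0, 0, 2.24 and 0 in sham and at 239.7, 344, 282, 334 and 313 in den. It was listed at 0 in 4 of the 5 sham libraries and was present in every den library. Fst, follistatin, which binds myostatin and activin, rose by 1.38, and Tgfb1 by 1.93. In the insulin and IGF pathway, Akt1 rose from 1153, 1035, 1098, 1258 and 1319 to 5364, 4764, 5140.2, 5189 and 5619 (2.16 ± 0.07), and Akt2, Mtor and Rptor by 1.36, 1.10 and 0.74. The adaptors of the insulin receptor Irs1 and Irs2 changed by -1.91 and -0.77, the latter without a call under equal library totals, and Igf1 gave 0.20 without a call. Of 20 genes in this pathway 8 rose and 6 fell, and of 20 in the myostatin, activin and BMP list 6 rose and 9 fell, beside the 28.6% and 26.4% of all genes. With equal library totals 14 rose and 3 fell in the former, and 9 rose and 5 fell in the latter. Among imprinted growth genes, H19, a noncoding RNA, Peg3 and Grb10, an adaptor that damps insulin signalling, rose by 2.62, 2.64 and 1.47, whereas Igf2 gave -0.37 and was not called, though it was called lower in a fit of the Opg-/- groups alone (adjusted p = 0.00992) and without WT den replicate 1 (0.0218).

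OPG acts in the RANK pathway, which signals through both arms of NF-kB. Tnfrsf11a, which encodes RANK, was low, with means of 12.8 in sham and 17.4 in den, and was not called (0.34), and Tnfsf11, which encodes RANKL, did not pass the filter on low values. Map3k14 (NIK), the activating kinase of the alternative arm, rose from 144, 107, 139, 114 and 146 to 1369.9, 889.5, 1091, 946 and 1244 (3.08 ± 0.17). Nfkb2, which encodes p100, rose from 307, 285, 314, 294 and 355 to 2366, 2066, 2545, 2204 and 2706 (2.93 ± 0.10) and Relb by 2.17. Nfkb1 (0.14), of the classical arm, was not called, but was called higher with equal library totals (0.59), with voom on recovered reads (0.17) and without sham replicate 3 (0.17), while Rela rose by 0.43, and the inhibitor Nfkbia changed by -1.27. Lgr4, a second receptor for RANKL, fell by 1.18. Of 17 genes, 9 rose and 3 fell (12 and 2 with equal library totals), and the median was 0.34. Of 13 other receptors and ligands of the tumor necrosis factor (TNF) family, 8 rose and 3 fell (median 1.33). Eda2r, the ectodysplasin A2 receptor, was at 280.0, 488, 406, 407 and 961 in sham and at 8201, 7716, 8642, 7541 and 7221 in den (4.07 ± 0.22). Tnfrsf12a (Fn14), the TWEAK receptor, rose by 2.51, Ngfr, the p75 neurotrophin receptor, by 4.42 and the decoy receptor genes Tnfrsf23 and Tnfrsf22 by 4.86 and 3.80. Reads of these 2 decoy receptors can be shared, since they are near copies. Fas and Tnfrsf19 changed by -0.97 and -1.32. In the gp130 cytokine list, Socs3 rose by 2.09 and Stat3 by 0.58, while Il15, a muscle-derived cytokine, fell by 2.12 and Il6 had means of 2.33 in sham and 3.75 in den, without a call.

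**Figure D4:**
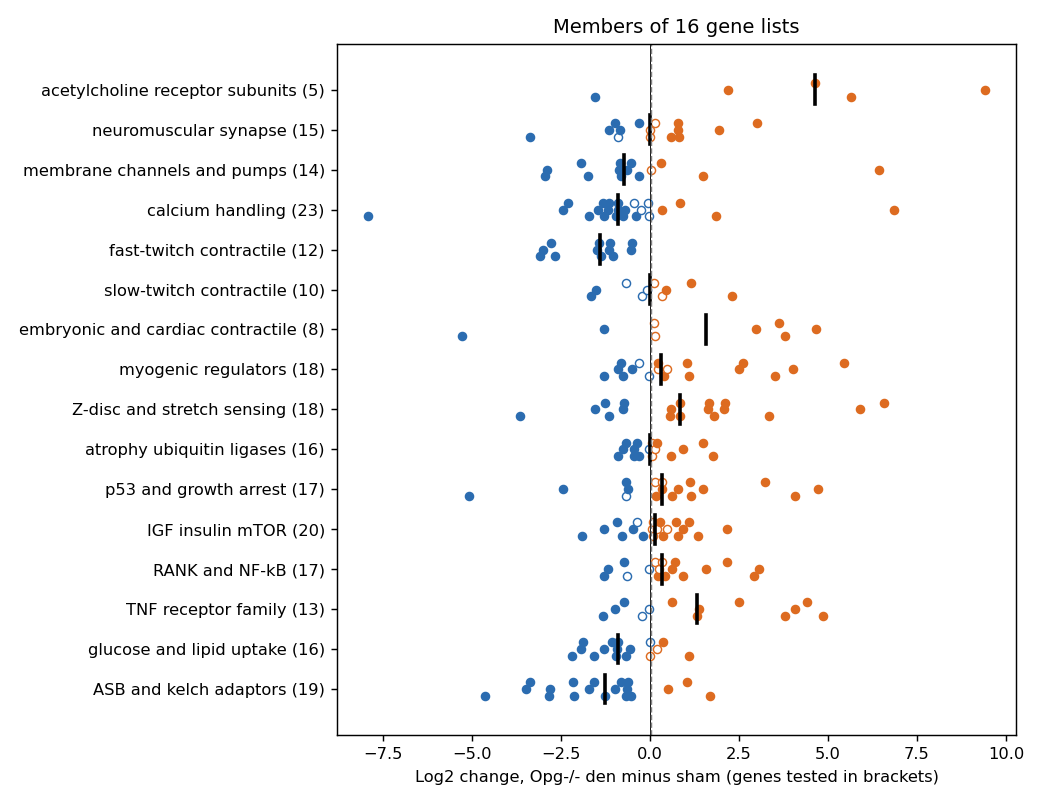
Log2 change from Opg-/- sham to Opg-/- den of each member of 16 gene lists (horizontal axis). Filled points passed the test at an adjusted p under 0.05, open points did not, the black bar is the median of the list and the dashed line the median of all genes, 0.02. All filled points of the fast-twitch list lie left of 0, while those of the Z-disc and TNF receptor lists lie on both sides.

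Genes that take up and use fuel were mostly lower. Of 16 genes for glucose and lipid uptake 11 fell and 2 rose (median -0.90), and 9 fell and 5 rose with equal library totals. Slc2a4 (GLUT4), the insulin-dependent glucose transporter, fell from 18112, 18594, 18499, 18709.6 and 19670.0 to 6339, 4322, 5099, 4319 and 4701 (-1.93 ± 0.08). Lpl, the lipase that frees fatty acids at the capillary wall, Slc27a1, a fatty acid transporter, and Hk2, the muscle hexokinase, changed by -1.87, -2.19 and -0.94. In the energy buffering list 10 of 13 fell, among them Ckm (-1.89) and the mitochondrial Ckmt2 (-3.18), which shuttle phosphate through creatine. Perm1, a muscle coregulator of oxidative genes, fell from 3021, 2959, 3224, 3109.9 and 2683 to 138, 126, 85.0, 145 and 116 (-4.63 ± 0.15). Esrra and Ppargc1b, with which it works, changed by -1.34 and -1.31. Ppargc1a (PGC-1alpha), the best known of the group, was called higher by 0.37 (adjusted p = 0.0245) with overlapping groups, and the call was lost without sham replicate 1 or 3 or den replicate 1 or 5 (adjusted p from 0.0585 to 0.0755). Tead4, a Hippo pathway factor placed on the same list, rose from 109.9 ± 39.1 to 851 ± 96.2.

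Of 12 genes of polyamine metabolism 2 rose and 4 fell (median 0.03), beside 28.6% and 26.4% of all genes, and 6 rose and 2 fell with equal library totals. A few of the decreases were large. Amd1, S-adenosylmethionine decarboxylase, was at 43060.2, 38793, 43894, 36022 and 31721 in sham and at 1148, 896, 760.4, 826 and 967 in den, a log2 change of -5.40 ± 0.12 (adjusted p = 9.13e-20). Amd2 is a near-identical copy whose reads cannot be kept apart from those of Amd1, and it changed by -5.13. Smox, spermine oxidase, went from 20115, 13595, 18117, 14967 and 13821 to 524, 474, 534, 505 and 518 (-4.96 ± 0.11). Of the other steps, Odc1, which makes putrescine, rose by 0.49, and Sat1 (0.02) and Sms (0.20) were not called. Among amino acid transporters, Slc7a5, a carrier of large neutral amino acids, rose from 81.2, 98.0, 89.8, 81.6 and 91.9 to 489.7, 749.9, 711, 746 and 768 (2.94 ± 0.13), and Slc7a2, a carrier of arginine and lysine, fell by 3.18. Atf4 itself fell by 0.82. Metallothioneins Mt1 and Mt2 rose by 1.72 and 3.15, and of 18 antioxidant genes 10 rose and 1, Sod2 (-1.19), fell. Small heat shock proteins split, with Hspb7 and Hspb8 up by 2.83 and 2.31 and Hspb6 at -1.27.

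The adaptors that bring substrates to cullin ligases, of which many are found mainly in muscle, were mostly lower. Of 19 ASB and kelch adaptors 16 fell and 3 rose, and 13 fell and 3 rose with equal library totals (median -1.27 at the scaling of the authors). Asb18 was at 641, 560.4, 583, 630.5 and 363 in sham and at 30.3, 21.5, 19.4, 19.5 and 17.5 in den (-4.62 ± 0.24), and Klhl33 and Kbtbd13 changed by -3.49 and -3.36. Klhl40 and Klhl41, which stabilize thin filament proteins, rose by 1.04 and 0.51, and Klhl30 by 1.69.

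Muscle also sends signals to nerve, bone and vessels. Ostn, osteocrin (musclin), was at 864, 431, 656, 654 and 468 in sham and at 11.3, 2.59, 12.1, 12.7 and 5.25 in den, a log2 change of -6.10 ± 0.29 (adjusted p = 1.42e-13). Fndc5, the precursor of irisin, and Vegfa, the main vascular growth factor, changed by -1.97 and -1.74. Gdf15 and Fgf21, stress hormones, rose from means of 1.88 ± 1.77 to 17.7 ± 10.9 and 0.462 ± 0.634 to 6.04 ± 4.39. Genes of nerve growth and axon guidance changed in both directions, and which cells of the tissue express them was not tested. Gdnf, a survival factor for motor neurons, rose from 4.85, 7.54, 13.2, 13.4 and 15.5 to 31.2, 66.4, 83.4, 76.3 and 141 (2.71 ± 0.34), and Gap43, a growth cone protein, by 2.11. Ntf5 (neurotrophin-4), which the active fibre supplies, fell from 57.0, 76.6, 73.0, 66.0 and 75.2 to 3.78, 4.31, 7.29, 10.2 and 0.875 (-3.71 ± 0.43). Fgfbp1, which binds fibroblast growth factors and stabilizes the junction, changed by -4.07 and Sema6c, a semaphorin, by -3.81. Of 15 genes on this list 8 fell and 2 rose. Col19a1 and Col25a1, collagens tied to synapse formation and motor innervation, rose by 5.42 and 2.19. The call of Col25a1 was lost with a pseudocount of 0.1. Of the fibrillar and basement membrane collagens, Col1a1 (-0.67) and Col3a1 (0.27) were not called, and Col4a1 and Col6a1 changed by -0.84 and -0.86. None of the 10 decreases in the matrix list was still called with equal library totals. Postn and Tnc, which mark tissue remodelling, rose by 2.05 and 2.09.

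A few genes changed from near absence to clear expression or the reverse. At most 3 in every sham and at least 50 in every den library was found for 6 genes: Chrng and Gdf5, described above, Clca1, Orm2, Otos and a gene with a clone name. Clca1, a secreted protein of the chloride channel accessory family, was at 0, 0, 0, 0 and 1.19 in sham and at 173, 234, 288, 243 and 216 in den. Orm2, an acute phase protein of liver, was at 0, 0, 0, 1.12 and 0 in sham and at 101, 229, 130.4, 212 and 202 in den. Otos, otospiralin, was at 1.21, 1.26, 1.20, 0 and 0 in sham and at 133, 101, 126, 91.6 and 91.9 in den. The reverse was found for 1 gene, Col9a1, a collagen of cartilage, which was at 60.6, 117, 55.1, 80.5 and 71.6 in sham and listed at 0 in all 5 den libraries. Among the other genes of the leading 15 in each direction, Ces2c, a carboxylesterase, Abhd15, Aif1l and Cpne2 rose by 6.74, 6.12, 6.05 and 5.54. In the other direction, Odf3l2, Smco1, Mlf1 and Tmem233 changed by -7.83, -5.89, -5.40 and -4.74.

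Genes of other cell types in the muscle moved as well. Macrophage markers were higher: 12 of 12 rose (median 1.31). The groups did not overlap for 6 of the 12, where 40.8% of all genes showed no overlap. Their summed value ranged from 1289 to 2409 in sham and from 2842 to 6815 in den, with den replicate 1 the lowest of the den libraries. Cd68, a lysosomal protein of macrophages, was at 25.5, 30.2, 16.8, 39.1 and 13.1 in sham and at 317, 445, 333, 379 and 407 in den. Its log2 change of 3.95 ± 0.25 stood above the 1.02 to 2.27 of the other 11. Tgfb1, Ctsl, Tnfrsf1b (1.38) and Timp1 (3.18) are also made by macrophages, and the part of these cells in their increase was not tested. Of the 8 tested T and B cell markers 1 fell and none rose, and of 7 neutrophil markers 1, S100a8 (4.58), rose while S100a9 (0.48) was not called. The summed value of the neutrophil markers was 26.8 to 139 in sham and 183 to 535 in den. All 9 endothelial markers fell (median -1.11), with sums from 8420.5 to 10203 in sham and from 3612 to 4667 in den, and so did all 7 of smooth muscle and pericytes (median -1.43). Under equal library totals 8 of the 9 and 7 of the 7 fell. Vegfa, Lpl, Cd36 (-1.06) and Col4a1 are made by or for the vessels, and the part of vessel cells in their decrease was not tested.

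Schwann cells wrap motor axons in myelin, and 5 of 8 markers fell and none rose. Prx, periaxin, a protein of the myelin sheath, was at 413, 560.4, 518, 412 and 442 in sham and at 15.1, 32.8, 20.2, 11.9 and 29.8 in den (log2 change -4.44 ± 0.27), and Mal and Pmp22, also of the sheath, changed by -3.92 and -2.36. The summed value of the list was 2816 to 3756 in sham and 693 to 1423 in den. Sox10, the transcription factor of the lineage, had means of 86.4 in sham and 94.7 in den and was not called. Ngfr, described above, is also a gene of Schwann cells without myelin, and their part in its rise was not tested. The 8 fibroblast markers split into 1 up, 3 down and 4 not called, and with equal library totals 1 was up and none down. Their sums ranged from 18780.0 to 29282 in sham and from 12579 to 25309 in den. Of the 5 erythroid markers 4 fell, all with overlapping groups, and Hbb-bt (-0.86) was not called, and none was called with equal library totals. Globin genes are near copies that can share reads, and the sum of the list ranged over 4458 to 15560.2 in sham alone. For adipocytes, 1 of 8 markers, Fabp4 (-0.91), passed the test, while the summed value of the 8 was 3437 to 5574 in sham and 2241 to 2832 in den.

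**Figure D5:**
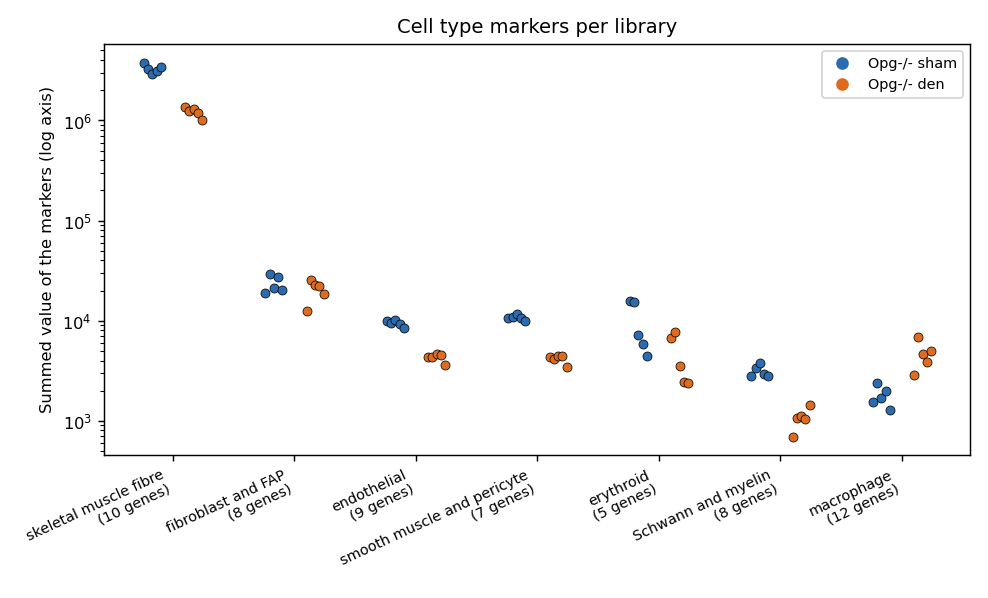
Summed value per library (log axis) of the marker genes of 7 cell types in Opg-/- sham (blue) and Opg-/- den (orange), 5 libraries each. The groups stand apart for macrophage, endothelial, smooth muscle and pericyte, Schwann and muscle fibre markers, and overlap for fibroblast and erythroid markers.

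Whether the response to denervation depended on Opg was tested as the difference between the change in Opg-/- and the change in WT muscle. Of 17948 genes, 1 (0.00557%) passed an adjusted p under 0.05, and 1249 had an unadjusted p under 0.05. That gene was Tet2, which encodes an enzyme that oxidizes methylated cytosine in DNA. In Opg-/- muscle Tet2 was at 292, 333, 291, 309.6 and 357 in sham and at 575, 592, 650.2, 478 and 611 in den, a log2 change of 0.87 ± 0.09 (adjusted p = 4.79e-09). In WT muscle the 4 independent sham values were 348, 384, 440.3 and 393 and the den values 423, 498, 358, 382 and 388, a log2 change of 0.06 ± 0.10. The difference of the changes was 0.81 ± 0.14 (adjusted p = 0.0470), and 5 of the 7 other settings lost the call (adjusted p from 0.0436 to 0.123 over the 7). It was also lost in 14 of the 19 fits that left out 1 library, with adjusted p from 0.00663 to 0.167, and was kept without Opg-/- sham replicate 5, Opg-/- den replicate 1 or 4, the averaged WT sham pair or WT den replicate 2. Tet2 is also among the genes that the study picked out from these libraries, so the result is not independent evidence. The study picked these genes by a difference between Opg-/- den and WT den, and also measured them by qRT-PCR. The interaction is a different measure, and the den against den comparison was not made here. The other genes so picked gave no interaction call. Rbm3, a cold-inducible RNA-binding protein, gave 1.35 ± 0.09 in Opg-/- and 1.10 ± 0.10 in WT (interaction adjusted p = 0.711). Inpp5k, an inositol phosphatase, gave 0.93 ± 0.08 and 0.85 ± 0.08 (0.891). Deptor, an inhibitor of mTOR, gave 0.08 ± 0.09 and 0.44 ± 0.10 (0.628).

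With predicted genes passed over, the next genes by interaction p were Gdf1, Mfrp, Clec4a1, Xdh, Krt8, Wnt10b, Ankrd61, Fbxl13 and Cdh15, with adjusted p from 0.180 to 0.267. Krt8, the gene with the largest increase in Opg-/-, rose by 11.13 ± 0.45 there and by 7.66 ± 0.48 in WT (interaction adjusted p = 0.267), and its WT sham values were 9.79, 25.9, 9.67 and 13.2 against 0, 0, 0, 0 and 4.77 in Opg-/- sham. Without Opg-/- sham replicate 5, the only one of these 5 above 0, the difference for Krt8 was 3.97 and passed the test (adjusted p = 5.15e-04). The Opg-/- sham values left in that fit were all 0 and had no spread, so this p depends on leaving out the only value above 0. Mfrp passed without the averaged WT sham pair (adjusted p = 0.0252) and Gdf1 without WT den replicate 2 (0.0274). Cdh15, M-cadherin of satellite cells, changed by 0.41 in Opg-/- and 0.96 in WT. Xdh, xanthine dehydrogenase, gave 0.11 and -0.51. For the ligases, Fbxo32 was at 0.94 ± 0.18 in Opg-/- and 1.05 ± 0.20 in WT (interaction adjusted p = 0.946) and Trim63 at 0.59 ± 0.21 and 0.995 ± 0.23 (0.792). For Myh4 the pair was -2.66 ± 0.18 and -2.24 ± 0.19 (0.738), and for Chrna1 4.64 ± 0.12 and 5.04 ± 0.13 (0.711). A p above the threshold does not show that the responses were alike.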

How the data were processed

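Total RNA of GAS muscle was extracted with TRIzol, and libraries that do not keep the strand were sequenced. Per the labels, reads were aligned to mm10 with STAR and quantified with RSEM, whose versions are not given in the sources used here. The table deposited by the authors holds 32285 genes by 20 libraries as a signal: estimated counts divided by 1 size factor per library. Dividing each library by its most common low value, taken as the value of 1 read, gave 86.3 to 87.6% whole values (within 0.005 of a read), too few for a count test. RSEM divides reads shared by gene copies, and without strand the reads of overlapping antisense genes cannot be told apart.

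The test covered the 17948 genes that reached 1 in 4 or more libraries. It used limma 3.58.1 (trend, robust) in R 4.3.3 on log2(value + 1), with the 4 groups in a single model and p-values adjusted by Benjamini-Hochberg over every gene tested. The fit was tested on simulated data. The near-identical WT sham pair was averaged. Where a symbol had several gene IDs, the ID with the higher mean was used. Coordinates are GENCODE M21 (GRCm38) and promoters RefSeq (GRCm38.p6). Named genes were the 15 largest changes in each direction (mean log2 of at least 5, groups not overlapping), members of fixed lists of at most 26 genes, the 10 highest values per group, the 10 smallest interaction p, genes switched on or off (at most 3 against at least 50), and genes the study names. Predicted genes, pseudogenes and clone names were passed over in the rankings by change and by interaction p. By change, 2 such genes ranked above the last named gene that rose and 1 above the last that fell. A few genes are not reported here and were left out of the lists. Members and lists were chosen with earlier results of these data known. The authors' definition of a differentially expressed gene was kept, while EBSeq, which they used, was not.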

Additional observations from a re-analysis of the deposited data

Results flagged for a closer look

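The change of Tet2 was larger in Opg-/- than in WT muscle by 0.81 on the log2 scale (limma interaction, adjusted p = 0.0470). It was the 1 gene of 17948 that passed this test in the main fit, which averaged the near-identical WT sham pair. With that pair kept separate the adjusted p of Tet2 was 0.0573, so the call depends on the setting.

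In 498 groups of 5 libraries, 43 held a library whose gap to the nearest other exceeded 0.71 of the range (Dixon's criterion), where chance alone gives about 1 in 20 groups. The values below are those libraries, each with the range of the other 4 of its group.

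Genes high in den replicate 1 were Dhrs7c (35.0 against 5.17 to 13.6), Gadd45g (245 against 148 to 172), Pax7 (87.9 against 45.5 to 55.9) and Rpl3l (834 against 526 to 568). Genes low in den replicate 1 were Fst (139.9 against 219.8 to 248), Slc7a5 (489.7 against 711 to 768), Sox10 (35.0 against 99.1 to 118), Tnc (75.6 against 347 to 411) and Tnfrsf1b (152 against 220.2 to 229). Gdf15 (36.4 against 10.2 to 17.5) was high in den replicate 3. Genes low in den replicate 3 were Bche (63.2 against 82.7 to 88.2) and Myog (1542 against 2083 to 2272). Genes high in den replicate 4 were Myh8 (893 against 282 to 442) and Mymk (88.2 against 31.2 to 36.2). Genes high in den replicate 5 were Col19a1 (659 against 363 to 419), Klhl33 (556 against 417 to 445) and Mrln (579 against 493 to 517). Genes low in den replicate 5 were Cacna1s (16198 against 18944 to 19544), Casq1 (7670.0 against 10344 to 10998), Des (97073 against 114063 to 119106), Klhl41 (9732 against 12800.5 to 13899.5) and Ppargc1b (26.3 against 40.5 to 46.2). Genes high in sham replicate 1 were Eno3 (135449 against 108110.0 to 114432), H19 (8529 against 4454 to 5518) and Mfrp (1.56 against 0 in each). Kcnk5 (21.8 against 33.5 to 37.0) was low in sham replicate 1. Col1a1 (12477 against 3976 to 6283) was high in sham replicate 2. Agrn (927 against 702 to 748) was high in sham replicate 3. Genes low in sham replicate 3 were Nos1 (764 against 1084 to 1212) and Tnfrsf23 (49.1 against 75.2 to 82.0). Genes high in sham replicate 4 were Aif1l (88.3 against 38.3 to 45.4), Gdf5 (2.24 against 0 in each), Mymx (22.4 against 0 to 3.58) and Orm2 (1.12 against 0 in each). Tcap (39241 against 54829 to 60606) was low in sham replicate 4. Genes high in sham replicate 5 were Ankrd1 (584 against 151 to 206), Clca1 (1.19 against 0 in each), Krt8 (4.77 against 0 in each) and Tnfrsf12a (473 against 172 to 244). Genes low in sham replicate 5 were Amd2 (341 against 456 to 463), Col4a1 (3144 against 4170.1 to 4411), Hdac7 (513 against 630.5 to 675) and Smco1 (861 against 1064 to 1133).

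Den replicate 1 also held the lowest summed value of macrophage markers, fibroblast markers and Schwann markers among the den libraries. Sham values of Gdf5, Orm2, Clca1, Krt8 and Mfrp above 0 come from 1 library each and lie near the value of a few reads.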

How the results depend on the processing

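The count of genes higher was 3743 with equal library totals, 1367 with the stricter filter (at least 10 in every library of a group) and 668 at a log2 threshold of 2, against 2055. The count lower was 929 with equal library totals and 439 at a threshold of 2, against 1828. Under the other settings the counts stayed within 1.5 times. Leaving out 1 library gave 1954 to 2080 genes higher, 1736 to 1864 lower, 9421 to 9985 past the adjusted p and 0 to 3 interaction genes. The interaction gene count of 1 became 0 in limma with no filter, a pseudocount of 0.1, the near-identical libraries kept separate or voom (unadjusted p under 0.05 for 1439, 1242, 1330 and 1108 genes), and 2 with the replicate block (Plekhh1 and Gdf1, while Tet2 had an adjusted p of 0.0919), and it stayed at 1 with the stricter filter and with equal library totals. The cause of these differences was not tested.

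Of 249 genes named in the report, 218 were called, of which 203 stayed called in the same direction under every setting that tested them. With equal library totals 12 lost the call and 16 gained one, and among these 4 turned direction, to 0.15 for Agrn, 0.43 for Jsrp1, 0.40 for Mrln and 0.062 for Ryr1. The stricter filter left 237 of these genes. Depth limits Tnfrsf11b, Tnfrsf11a, Il6 and other genes with few reads.

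Same-numbered Opg-/- sham and den libraries deviated together weakly (r from 0.0524 to 0.131 over 13350 genes), and those of WT did so from -0.112 to 0.172. Every Opg-/- library correlated best with its own number, which hints at pairs. The deposited column names also join a limb letter to the replicate number, and per the methods both muscles of each mouse were taken. No label states that equal numbers mean the same mouse, and the correlations were weak. The main test therefore did not treat the numbers as pairs, and its p-values leave out any pairing of limbs. With the replicate block, 2057 genes were higher, 1844 lower and 9894 past the adjusted p, and among the named genes 3 gained a call (Foxo3, Hbb-bt and Myf5) and none lost one. An edgeR fit was not run, because the recovered values were not whole.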

Other observations

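Genes of the circadian clock, which most muscle fibres run, changed in both directions. Of 17 tested, 6 rose and 8 fell, but 8 rose and 6 fell with equal library totals, where 47.5% of all genes rose and 12.8% fell. The activators Arntl (BMAL1) and Clock rose from 221, 226, 219, 183 and 253 to 513, 601, 511, 391 and 652 (log2 change 1.26 ± 0.13) and by 1.47, and Nr1d1, which represses Arntl, rose by 1.16. The output factors Dbp and Hlf changed by -0.84 and -1.13, and Bhlhe41 by -1.45. The time of day at which muscles were taken is not given in the sources used here.

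Of 7 satellite cell markers 2 rose and 3 fell, and 3 rose and 1 fell with equal library totals. Their summed value was 1559 to 2074 in sham and 2366 to 3089 in den, higher in every den library. Sdc4, a surface proteoglycan that other cells also carry, rose by 1.25, while Chodl and Calcr changed by -1.06 and -1.30.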
